A study of Mus musculus with 18 samples.

Results

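The genes described here are 35 listed genes of cholesterol and fatty acid synthesis and of its control by the sterol regulatory element-binding proteins (SREBPs). They were chosen by name, with earlier results of these data known. All 35 were found by symbol among the 55487 genes counted in each library. They comprise 7 genes of the mevalonate segment, 11 of the segment from squalene to cholesterol, 6 of SREBP control and sterol transport, 9 of fatty acid synthesis, elongation and desaturation, and 2 of sterol efflux. Of these, 34 passed the filter on low counts and were tested. The remaining gene, Elovl6, which encodes a fatty acid elongase, had 0 to 4 counts per library, was at 0 in 8 libraries and exceeded 3 counts in 1 library. A count of 0 allows up to 3 counts, which was 0.102 to 0.268 counts per Mio (CPM) depending on the library, so that Elovl6 was not detectable beyond this level.

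The 18 RNA libraries came from WEHI-231, a murine immature B cell lymphoma line with surface IgM, and covered 3 genotypes at 3 times with 2 libraries per group. The genotypes were parental cells, labelled wt, and the TFEB knockout clones #A-59 and #B-20, each of them a single clone obtained by electroporation of Cas9 with a guide RNA against Tfeb. Cells were left unstimulated (0 h) or were stimulated through the B cell antigen receptor (BCR) for 6 or 18 h with F(ab')2 fragments against IgM at 10 µg/ml. No unstimulated library is labelled 6 or 18 h, and whether unstimulated cells were cultured as long is not stated. Effects of anti-IgM and of hours in culture can therefore not be told apart. All groups were grown in medium with serum, and per the study the 2 libraries of a group are independent experiments. The p-values rest on the spread between libraries within groups, pooled over all 9 groups. They do not measure the spread between clones. The study addressed which transcriptional regulators BCR ligation mobilizes and what TFEB, a regulator of lysosomal and autophagy genes, contributes to the response.

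Tfeb itself was at 79.2 to 99.9 CPM in the 6 parental libraries, at 25.5 to 40.5 CPM in the 6 libraries of #A-59 and at 34.2 to 54.1 CPM in the 6 libraries of #B-20. The clones were thus below every parental library, but Tfeb counts remained in them, and counts do not show whether these transcripts encode TFEB. The libraries held between 11223588 and 29655262 counts (median 19846544). All 8 B cell markers examined were present, with a summed level of 6243 to 12489 CPM, whereas 5 T cell markers summed to at most 0.985 CPM and 3 erythroid markers to at most 0.0653 CPM, with 1 of the latter at 0 throughout. Markers of myeloid cells (4 genes) summed to 0.699 to 27.0 CPM, and those of fibroblasts (3 genes) to 1.18 to 7.18 CPM.

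Cholesterol is built from acetyl-CoA through mevalonate, farnesyl diphosphate, squalene and lanosterol. SREBPs are made as membrane proteins of the endoplasmic reticulum, where INSIG proteins hold them together with their escort SCAP as long as sterols are abundant. When sterols run low, SCAP carries SREBPs to the Golgi apparatus for proteolytic release, and the released factor switches on genes of sterol and fatty acid synthesis. Liver X receptors (LXRs) respond to oxysterols in the opposite situation and switch on the exporters ABCA1 and ABCG1. Lymphocytes draw on both routes when they grow and divide, because new membrane requires sterols and fatty acids.

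Promoter sequences are shown for 5 members whose levels carry the results below, with some of the elements searched for marked. They are stretches upstream of 1 RefSeq start site of each gene on GRCm38.p6, read 5′ to 3′ on the strand of the gene. Capitals mark TCACNCCAC (an SREBP site), CCAAT or its reverse ATTGG (the NF-Y box) and CACGTG (an E-box). LXR elements were not searched for, so that unmarked bases, as in Abca1, do not show that such elements are absent. Hmgcs1 lies at chr13:119690201-119690350 (plus strand), Idi1 at chr13:8885506-8885605 (plus), Lss at chr10:76531505-76531604 (plus), Fasn at chr11:120824548-120824647 (minus) and Abca1 at chr4:53159896-53160045 (minus). For Lss, Fasn and Abca1 the stretch overlaps the annotated span of the gene, because other transcripts start further upstream.
Hmgcs1: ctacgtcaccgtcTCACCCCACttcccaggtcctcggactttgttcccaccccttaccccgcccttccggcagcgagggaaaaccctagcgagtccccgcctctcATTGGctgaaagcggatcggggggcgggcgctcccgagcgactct
Idi1: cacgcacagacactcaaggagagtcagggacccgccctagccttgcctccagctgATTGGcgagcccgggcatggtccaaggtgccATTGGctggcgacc
Lss: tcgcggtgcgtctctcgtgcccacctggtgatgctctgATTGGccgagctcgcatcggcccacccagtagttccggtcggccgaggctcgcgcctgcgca
Fasn: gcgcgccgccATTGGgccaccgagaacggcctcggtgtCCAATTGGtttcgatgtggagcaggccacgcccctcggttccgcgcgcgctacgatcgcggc
Abca1: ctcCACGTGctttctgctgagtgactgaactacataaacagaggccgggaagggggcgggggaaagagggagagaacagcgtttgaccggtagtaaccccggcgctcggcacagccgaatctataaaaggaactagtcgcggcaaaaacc

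The SREBP site of Hmgcs1 begins 137 bases before the start site. The NF-Y boxes begin 45 and 14 bases before the start site of Idi1, 62 bases before that of Lss, and 90, 62 and 59 bases before that of Fasn, where the last 2 overlap. The E-box of Abca1 begins 147 bases before its start site. RefSeq windows from 250 bases before to 50 bases after the start were held for 27 of the 35 members. The NF-Y box CCAAT was found on either strand in 21 of these 27 (77.8%) and in 41.1% of 27025 genes, the GC box GGGCGG in 22 (81.5%) and in 38.2%, and the E-box CACGTG in 7 (25.9%) and in 8.09%. The SREBP site TCACNCCAC was found in 1 member (3.70%; 1.44% of genes) and its core CACNCCAC, which lies within the former, in 3 (11.1%; 7.12% of genes), namely Acat2, Hmgcs1 and Insig1. These are matches of letters in a fixed window and not measured binding sites. The 27025 genes were not limited to those tested here, so that their shares are not those of expressed genes.

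The 35 members held 1.08 to 1.41% of all counts. The stearoyl-CoA desaturases Scd1 and Scd2, which introduce the unsaturation into stearate and palmitate, made up 54.8 to 70.0% of the members' counts. Per kilobase of exon length, the levels in unstimulated parental cells were highest for Scd2 (463 counts per kb and Mio) and Scd1 (438), followed by Srebf2 (68.8), Acly (54.4), Hmgcs1 (51.3), Srebf1 (50.3), Fasn (43.7) and Cyp51 (42.3). The lowest among the tested members were Mvk (2.54), Idi1 (2.68) and Fdps (3.52). WEHI-231 cells thus transcribed nearly the whole pathway at 0 h, with the desaturases far above the enzymes of sterol synthesis.

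The sterol synthesis genes moved in opposite directions at the 2 times of stimulation. The summed level of the 18 genes of the mevalonate and squalene to cholesterol segments was 1312 and 1523 CPM in the parental libraries at 0 h, 1787 and 2009 CPM at 6 h, then 998 and 1088 CPM at 18 h. In #A-59 the sum was 1458 and 1569 CPM at 0 h, 1749 and 1982 at 6 h, then 805 and 926 at 18 h. The sum in #B-20 was 1265 and 1325 CPM at 0 h, 1573 and 1603 at 6 h, then 737 and 917 at 18 h. In all 3 genotypes both 6 h libraries were above, and both 18 h libraries below, both 0 h libraries. In bulk RNA, fewer cells that express a gene and less RNA per cell cannot be told apart.

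**Figure D1:**
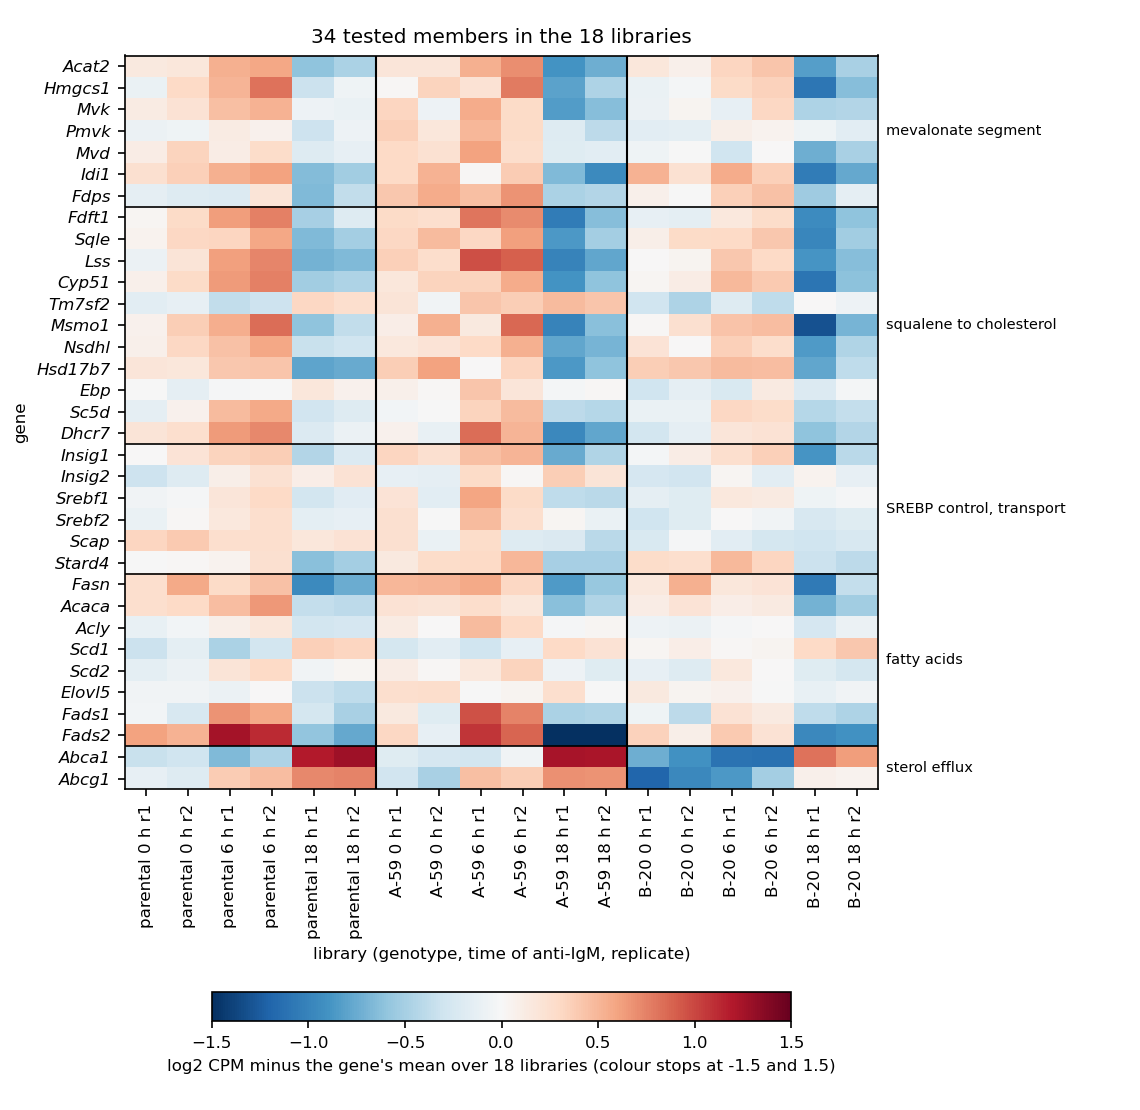
Heat map of the 34 tested members (rows, ordered by role) in the 18 libraries (columns, ordered by genotype and time); color gives the log2 CPM of a library minus the mean of that gene over all libraries. Most rows of sterol and fatty acid synthesis are high at 6 h and low at 18 h in each genotype, while Abca1 and Abcg1 are high at 18 h.

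At 6 h, 7 of the 34 tested members rose in parental cells and none fell at an adjusted p under 0.01, the threshold for "rose" and "fell" throughout, against 3.10% of the 15318 tested genes that rose and 4.24% that fell. The median log2 fold change of the members was 0.27, that of all genes 0.008. In #A-59, 7 members rose and none fell, against 2.45% and 3.69% of all genes, with a median of 0.22. The 6 members called in both were Lss, Sc5d, Dhcr7, Fads1, Fads2 and Abcg1, besides Scd2 in parental cells and Acat2 in #A-59. In #B-20 no member passed by edgeR's test, against 0.411% of all genes that rose and 0.875% that fell. There 13 members had an unadjusted p under 0.05, DESeq2 called 1 member, 27 of 34 log2 fold changes were positive and the median was 0.21. No member reached a log2 fold change of 1 at 6 h in any genotype. The highest was 0.86 (Fads1 in #A-59).

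These 6 h counts depended on single libraries. In parental cells, 3 and 2 members passed without 0 h replicates 1 and 2, and 4 and 2 without 6 h replicates 1 and 2, with Sc5d the call that held in each case. In #A-59, 2 members passed without 0 h replicate 2 (Fads1 and Abcg1) and 6 or 7 without any other library. Both 6 h libraries exceeded both 0 h libraries for 25 of 34 members in parental cells, 18 in clone #A-59 and 22 in clone #B-20, against 31.8%, 24.6% and 24.2% of all tested genes.

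At 18 h, 13 members fell and 5 rose in parental cells, against 16.2% and 16.4% of all genes, with a median log2 fold change of −0.32 (all genes, 0.04). In #A-59, 23 fell and 5 rose, against 17.1% and 14.7%, with a median of −0.73. In #B-20, 16 fell and 2 rose, against 11.4% in each direction, with a median of −0.39. The 12 members that fell in all 3 genotypes were Acat2, Idi1, Fdft1, Sqle, Lss, Cyp51, Nsdhl, Hsd17b7, Stard4, Fasn, Acaca and Fads2, and the 2 that rose in all 3 were Abca1 and Abcg1. Members beyond a log2 fold change of 1 in either direction (DEGs) were 3 in parental cells, 10 in clone #A-59 and 6 in clone #B-20, against 10.3%, 8.76% and 4.80% of all genes. The DEGs were 3 in parental cells and 7 to 15 in #A-59 without 1 library, and those in #B-20 were 10 without 18 h replicate 2 and 4 to 6 without any other. Without each of the 4 libraries of a comparison in turn, 12 of the 18 parental calls, 18 of the 28 calls in #A-59 and 12 of the 18 calls in #B-20 held throughout.

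Between 6 and 18 h, 23 members fell and 3 rose in parental cells (18.9% and 19.4% of all genes), 26 fell and 2 rose in #A-59 (17% and 14.9%), and 22 fell and 3 rose in #B-20 (11.1% and 11.5%). DEGs among these were 12, 16 and 10 members, against 13.5%, 9.02% and 4.45% of all genes. Without 1 library they were 9 to 13 and 12 to 18 in parental cells and #A-59, while in #B-20 they were 5 without 18 h replicate 1, 14 without 18 h replicate 2 and 10 or 11 without either 6 h library. The members that fell in all 3 genotypes numbered 19. By group means, 26, 24 and 24 of the 34 members were highest at 6 h in parental cells, #A-59 and #B-20, against 33.3%, 30.4% and 30.6% of all genes, and 27, 28 and 25 were lowest at 18 h, against 39.9%, 39.6% and 40.3%. The comparisons with 0 h share the 0 h libraries within a genotype, and those of 18 with 6 h share the stimulated libraries with them.

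**Figure D2:**
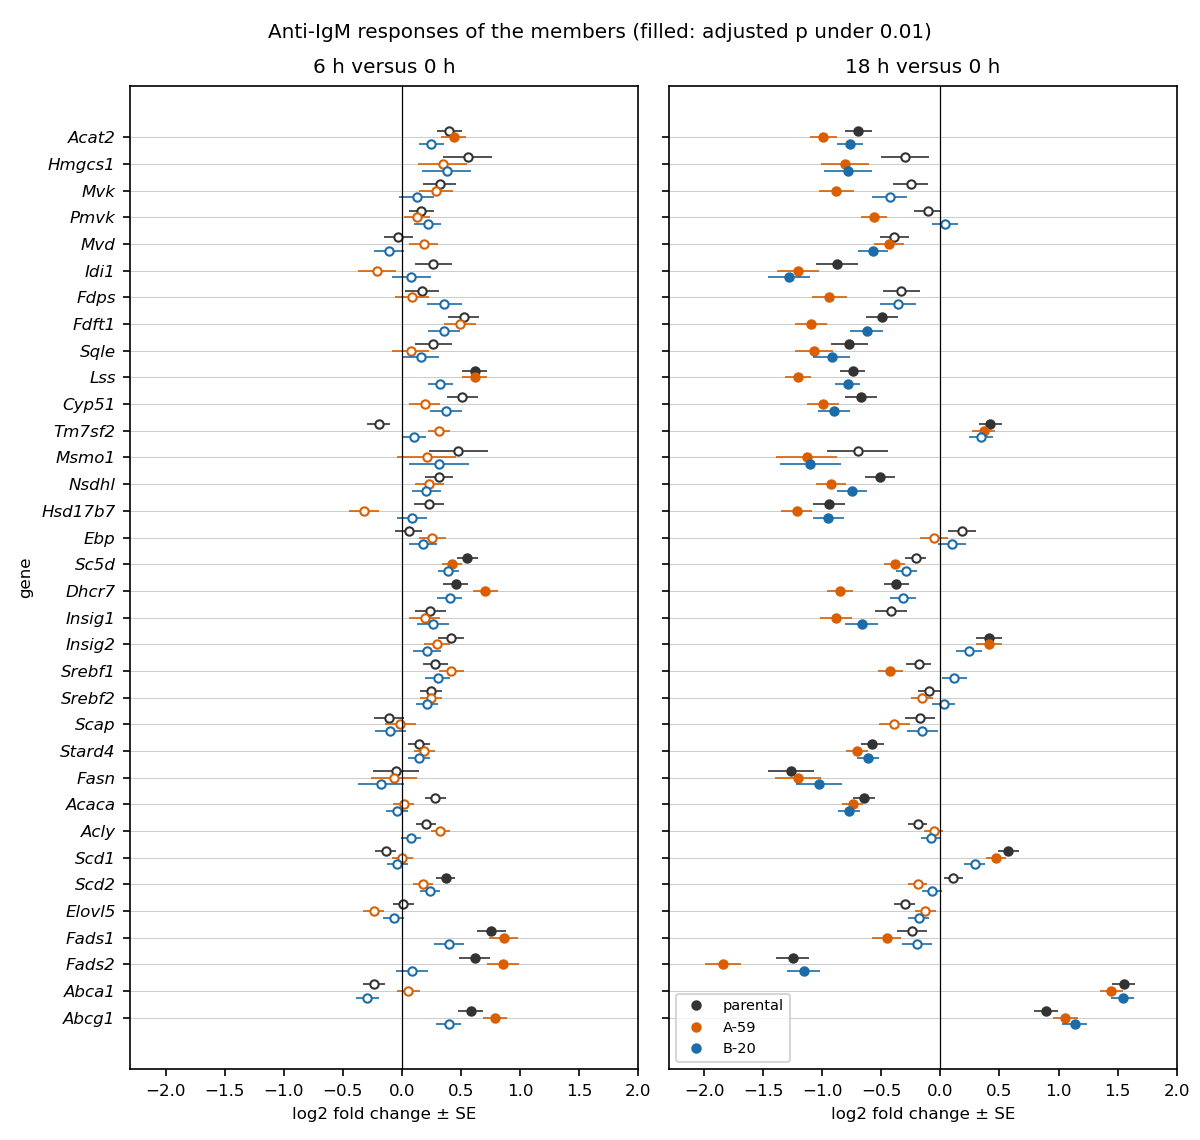
Log2 fold change ± SE of each tested member at 6 h and 18 h of anti-IgM versus 0 h in parental cells, #A-59 and #B-20 (n = 2 libraries per group); filled symbols passed at an adjusted p under 0.01. Most 6 h values lie above 0 and most 18 h values below it, with Abca1 the highest at 18 h in each genotype.

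The summed level of proliferation markers was lower at 18 h than at 0 h in each genotype. Of 10 such genes, 7 fell in parental cells, 9 in clone #A-59 and 1 in clone #B-20 at 18 h. Of all genes, 16.2%, 17.1% and 11.4% fell. The markers had medians of −0.43, −0.66 and −0.29, and none passed at 6 h. Their summed level went from 6345 to 6654 CPM at 0 h to 5326 to 5365 CPM at 18 h in parental cells, from 6590 to 6669 to 4604 to 5101 CPM in #A-59, and from 6808 to 7346 to 6243 to 6354 CPM in #B-20. The part of these markers in the fall of the pathway was not tested.

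The mevalonate segment leads from acetyl-CoA to farnesyl diphosphate. At 6 h, 1 of its 7 genes rose in #A-59 (Acat2), against 2.45% of all genes, and none in the other genotypes. At 18 h, 2 fell in parental cells, 7 in clone #A-59 and 4 in clone #B-20, against 16.2%, 17.1% and 11.4% of all genes. Acat2, the cytosolic thiolase at the entry of the segment, had 41.4 and 42.2 CPM in the parental libraries at 0 h, 54.2 and 56.0 at 6 h, then 24.5 and 26.9 at 18 h. The corresponding levels in #A-59 were 42.3 and 42.5, 54.2 and 60.8, and 20.1 and 22.6 CPM, and those in #B-20 were 41.9 and 39.3, 46.9 and 49.8, and 21.1 and 26.7 CPM. The libraries of the 3 times did not overlap in any genotype. Acat2 fell at 18 h by 0.69 ± 0.11 (SE) on the log2 scale in parental cells (adjusted p = 5.7e-05), by 0.99 ± 0.11 in #A-59 (1.3e-06) and by 0.77 ± 0.11 in #B-20 (3.8e-05), and each of these calls held without any 1 library. The rise of Acat2 in #A-59 at 6 h (0.44 ± 0.11, adjusted p = 0.0099) did not pass without any of the 4 libraries, where it was 0.35 to 0.51.

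Idi1, the isomerase of isopentenyl diphosphate, was transcribed at a low level. Its levels were 9.11 and 9.93 CPM in parental cells at 0 h, 11.2 and 11.7 at 6 h, then 4.91 and 5.39 at 18 h. In #A-59, Idi1 had 9.48 and 11.1 CPM at 0 h, 7.80 and 10.1 at 6 h, then 4.87 and 3.98 at 18 h. In #B-20 it had 11.1 and 9.05 CPM at 0 h, 11.3 and 9.93 at 6 h, then 3.73 and 4.55 at 18 h. All 18 h libraries were below all others of the same genotype, and Idi1 was 1.83-fold lower at 18 h than at 0 h in parental cells (adjusted p = 0.00057), 2.30-fold lower in #A-59 (2.5e-05) and 2.43-fold lower in #B-20 (2.3e-05). Of the longest annotated transcript of Idi1, 33.3% is shared with other annotated genes, a pseudogene among them, over stretches of at least 50 identical bases. Such stretches reach the length of the reads, so that the counts of Idi1 carry this uncertainty.

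Hmgcs1, which makes the precursor of mevalonate and carries the SREBP site shown above, had the same course with a wider spread. Parental Hmgcs1 levels were 234 and 306 CPM at 0 h, 356 and 439 at 6 h, then 200.1 and 238 at 18 h. They were 253 and 314, 291 and 430.2, and 144 and 181 CPM in #A-59, and 233 and 246, 304 and 318, and 117 and 161 CPM in #B-20. The 18 h libraries of the clones were below those at 0 h, whereas in parental cells they overlapped. Accordingly, Hmgcs1 fell by 0.81 ± 0.21 in #A-59 (adjusted p = 0.0059) and by 0.78 ± 0.21 in #B-20 (0.0096), while the parental value was −0.30 ± 0.21 (0.26). The calls of Hmgcs1 were lost in #A-59 without 0 h replicate 1 or 2 or 18 h replicate 1 (adjusted p up to 0.0606) and in #B-20 without the same 3 libraries of that clone (up to 0.0958). In each of the 9 groups replicate 2 of Hmgcs1 was above replicate 1, which was also the case for Sqle and Msmo1.

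The kinases of mevalonate and phosphomevalonate (Mvk and Pmvk), the decarboxylase Mvd and the farnesyl diphosphate synthase Fdps changed less uniformly. At 18 h all 4 fell in #A-59, with log2 fold changes of −0.88 (Mvk), −0.56 (Pmvk), −0.43 (Mvd) and −0.94 (Fdps), whereas Mvd fell in #B-20 (−0.57) and none of them passed in parental cells. The call of Mvd in #A-59 was lost without any of the 4 libraries (adjusted p 0.0214 to 0.0568), that of Mvd in #B-20 without 0 h replicate 2 or 18 h replicate 1 (up to 0.0318), and that of Pmvk in #A-59 without 0 h replicate 1 or 18 h replicate 2 (up to 0.0134). Of Mvd, 23.0% of the longest annotated transcript is shared with another annotated gene.

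In the segment from squalene to cholesterol most genes were lower at 18 h. Of its 11 genes, 7 fell in parental cells at 18 h, 9 in clone #A-59 and 7 in clone #B-20. The shares of all genes that fell were 16.2%, 17.1% and 11.4%. Median log2 fold changes of the 11 genes were −0.51, −0.996 and −0.75. At 6 h, 3 rose in parental cells and 3 in #A-59, against 3.10% and 2.45% of all genes. Lss, which cyclizes squalene epoxide to lanosterol, had 69.3 and 83.7 CPM in the parental libraries at 0 h, 112 and 122 at 6 h, then 44.8 and 46.5 at 18 h. In #A-59, Lss had 94.4 and 88.5 CPM, then 143 and 137, then 36.7 and 42.7, and in #B-20 73.8 and 75.6, then 97.0 and 90.2, then 39.8 and 47.0 CPM. The 3 times were separate in every genotype, with 6 h highest and 18 h lowest. Lss rose at 6 h 1.53-fold in parental cells (adjusted p = 0.00043) and 1.53-fold in #A-59 (0.00068), with 1.25-fold in #B-20 (0.12), and at 18 h it fell 1.67-fold (1.9e-05), 2.31-fold (1.1e-07) and 1.72-fold (2.3e-05), respectively. From 6 to 18 h the log2 fold changes of Lss were −1.36, −1.82 and −1.11. The falls held without any 1 library. The rise did not pass without parental 0 h replicate 1 or 6 h replicate 2 (adjusted p up to 0.0183), nor without #A-59 0 h replicate 2 (0.0185).

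Hsd17b7, a ketoreductase of the demethylation steps, had 35.5 and 35.3 CPM at 0 h, 41.4 and 41.7 at 6 h, then 18.1 and 18.6 at 18 h in parental cells. The levels were 40.5 and 47.7, 31.4 and 39.2, and 17.3 and 20.6 CPM in #A-59, and 40.4 and 41.5, 43.7 and 43.2, and 18.3 and 24.1 CPM in #B-20. The 18 h libraries of Hsd17b7 were the lowest in every genotype, whereas its 6 h libraries were above 0 h in parental cells and below it in #A-59. Hsd17b7 fell at 18 h by 0.95 ± 0.14 on the log2 scale in parental cells (adjusted p = 1.8e-05), by 1.22 ± 0.13 in #A-59 (9.8e-07) and by 0.95 ± 0.13 in #B-20 (2.6e-05), and no library was needed for these calls.

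The squalene synthase Fdft1, the squalene epoxidase Sqle and the demethylation enzymes Cyp51, Msmo1 and Nsdhl followed. At 18 h, log2 fold changes in parental cells, #A-59 and #B-20 were −0.49, −1.10 and −0.63 for Fdft1, −0.77, −1.07 and −0.92 for Sqle, −0.67, −0.996 and −0.90 for Cyp51, and −0.51, −0.92 and −0.75 for Nsdhl, and each of these passed. Msmo1 passed in the clones (−1.13 and −1.10) but not in parental cells (−0.70, adjusted p = 0.043), and its libraries differed most within a group, with a ratio of 1.64 between the 6 h libraries of #A-59. Not all of these calls were stable to the loss of 1 library. In parental cells, Fdft1 and Sqle did not pass without 0 h replicate 2 or 18 h replicate 1 (adjusted p up to 0.0724 and 0.0108), nor Nsdhl without these or 18 h replicate 2 (up to 0.0362). In #B-20, Fdft1 and Msmo1 did not pass without 0 h replicate 1 or 2 or 18 h replicate 1 (up to 0.0317 and 0.0522), and in #A-59, Msmo1 did not without 0 h replicate 2 or 18 h replicate 1 (up to 0.0384). Fdft1 shares 28.8% of its longest annotated transcript with Ctsb, which it overlaps, and Cyp51 shares 28.6% with Akap9 and a further annotated gene. Unstranded reads cannot separate these. In tested members other than these, Idi1 and Mvd, the shared part was at most 18.9% (Srebf2).

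The last steps to cholesterol include Sc5d and Dhcr7, which fell between 6 and 18 h in all 3 genotypes. Sc5d, the lathosterol desaturase, had 57.5 and 66.0 CPM at 0 h, 87.6 and 93.8 at 6 h, then 51.6 and 55.0 at 18 h in parental cells, and rose at 6 h by 0.56 ± 0.09 (adjusted p = 2.0e-04), the smallest adjusted p of any member at that time there. In #A-59, Sc5d rose by 0.43 ± 0.09 at 6 h (0.0035) and fell by 0.39 ± 0.09 at 18 h (0.0017), while in #B-20 its 6 h change was 0.39 ± 0.09 (0.018). In #A-59 the rise did not pass without 0 h replicate 1 or 2 or 6 h replicate 2 (up to 0.0311), nor the fall without replicate 2 of either time (up to 0.0136). Between 6 and 18 h Sc5d fell by 0.77, 0.81 and 0.68 in parental cells, #A-59 and #B-20, and these calls held without any 1 library.

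Dhcr7, the reductase that completes cholesterol, had 106 and 110.5 CPM at 0 h, 144 and 153 at 6 h, then 80.1 and 86.8 at 18 h in parental cells, and in #A-59 96.8 and 85.8, 166 and 132, and 47.3 and 53.9 CPM. In both genotypes the 3 times were separate. It rose at 6 h in parental cells (0.46 ± 0.11, adjusted p = 0.0067) and in #A-59 (0.71 ± 0.11, 0.00028) and fell at 18 h in both (−0.37 ± 0.11, 0.0092, and −0.85 ± 0.11, 5.9e-06), whereas in #B-20 neither change passed (0.40, 0.054, and −0.31, 0.032). Neither parental call of Dhcr7 held without any of the 4 libraries (adjusted p up to 0.0798 at 6 h and 0.0582 at 18 h), and the 6 h call in #A-59 was lost without 0 h replicate 2 (0.0111). Between 6 and 18 h Dhcr7 fell by 0.83 ± 0.11 in parental cells (4.3e-06), by 1.56 ± 0.11 in #A-59 (9.7e-09) and by 0.72 ± 0.11 in #B-20 (5.8e-05), each held without any 1 library.

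Tm7sf2 and Ebp behaved differently from the other sterol genes. Tm7sf2, the sterol reductase of the demethylation steps, had 46.4 and 47.6 CPM at 0 h versus 64.4 and 61.7 CPM at 18 h in parental cells, and rose by 0.42 ± 0.10 (adjusted p = 0.0018). In #A-59, Tm7sf2 rose by 0.37 ± 0.10 (0.005), and in #B-20 it changed by 0.34 ± 0.10 (0.012). Leaving out any of the 4 parental libraries took the parental p to between 0.0146 and 0.033, and the call in #A-59 was lost without 0 h replicate 2 or either 18 h library (up to 0.104). Tm7sf2 overlaps Vps51. Ebp, the sterol isomerase, passed in none of the 6 responses, with log2 fold changes between −0.06 and 0.26.

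**Figure D3:**
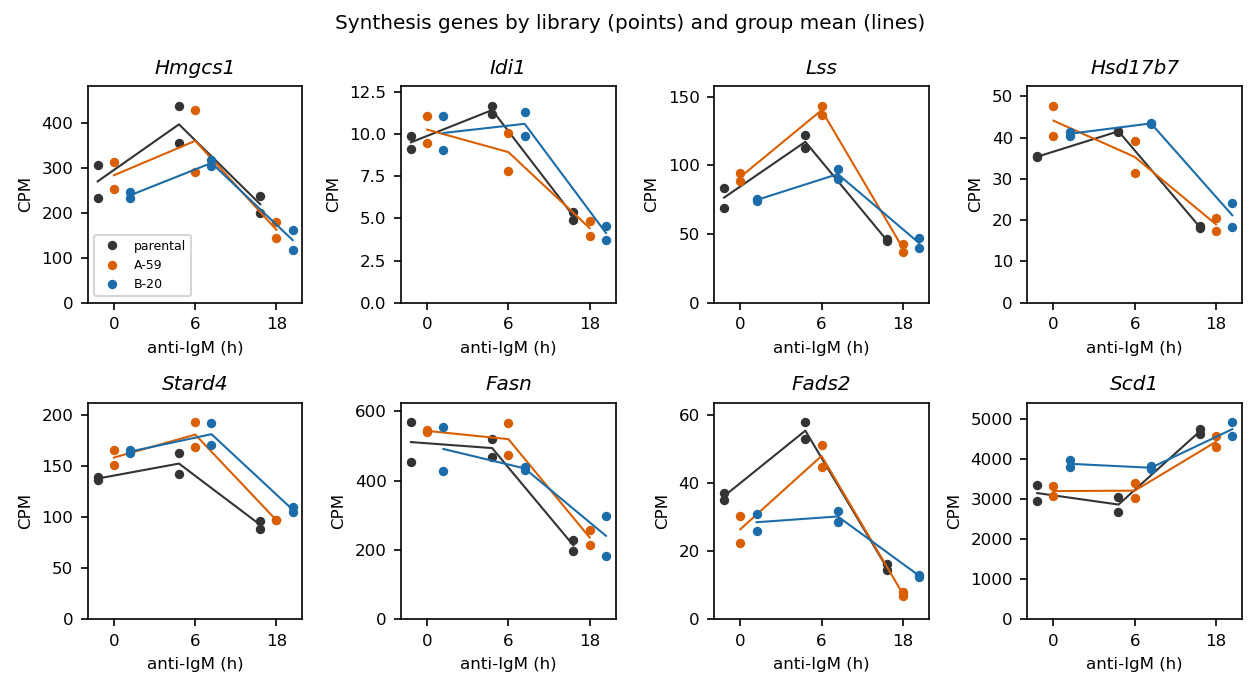
CPM of 8 members in each library at 0, 6 and 18 h (points, n = 2 per group; lines join the means) in parental cells, #A-59 and #B-20. Hmgcs1, Idi1, Lss, Hsd17b7, Stard4, Fasn and Fads2 are lowest at 18 h, while Scd1 is highest at 18 h in each genotype.

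Among the genes of SREBP control, the calls of the transcription factor genes in the time course were mostly between 6 and 18 h. Srebf2, which encodes the SREBP most tied to sterol genes, and Scap, which encodes the escort, passed in none of the 6 responses against 0 h. Srebf2 levels were 615 and 671 CPM at 0 h, 739 and 787 at 6 h, then 598 and 606 at 18 h in parental cells, and from 6 to 18 h it fell by 0.34 (adjusted p = 0.0058), a call lost without any of the 4 libraries (up to 0.041). The corresponding values of Srebf2 were −0.40 in #A-59 (0.0021), lost without 6 h replicate 1 or 18 h replicate 2 (up to 0.0299), and −0.19 in #B-20 (0.14). Srebf1, whose products act mainly on fatty acid genes, fell in #A-59 at 18 h (−0.43 ± 0.11, 0.0034), but not without 0 h replicate 1 or either 18 h library (up to 0.115). From 6 to 18 h it fell by 0.84 ± 0.11 in #A-59 (459.9 and 373 CPM to 235 and 229 CPM, adjusted p = 5.4e-06), which held without any 1 library, and by 0.47 ± 0.11 in parental cells (0.0013), which was lost without 6 h replicate 2 or 18 h replicate 1 (up to 0.0151). In #B-20 the change was −0.19 (0.19).

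The INSIG genes diverged. Insig1, itself an SREBP target and the retention factor of SCAP, had 66.1 and 76.3 CPM at 0 h versus 48.5 and 57.4 CPM at 18 h in parental cells, where its change of −0.42 did not pass (adjusted p = 0.017). It fell in #A-59 (−0.88 ± 0.14, 4.0e-05) and in #B-20 (−0.67 ± 0.14, 0.00088), the latter not without 0 h replicate 2 or 18 h replicate 1 (up to 0.0197). Insig2, the second retention factor, had 28.9 and 31.2 CPM at 0 h versus 38.3 and 41.5 CPM at 18 h in parental cells, and 32.8 and 32.6, and 46.1 and 40.8 CPM in #A-59. It rose at 18 h in both (0.41 ± 0.11, adjusted p 0.0058 and 0.0056), although not without any of the 4 libraries of either (up to 0.101 and 0.114), and changed by 0.24 (0.11) in #B-20. Stard4, a cytosolic sterol carrier, had 136 and 139 CPM at 0 h versus 88.6 and 96.0 CPM at 18 h in parental cells, without overlap, and fell by 0.57, 0.71 and 0.62 in parental cells, #A-59 and #B-20 (adjusted p 6.9e-05, 7.5e-06 and 6.1e-05), which held without any 1 library.

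Among the fatty acid genes, Scd1 was the one that rose at 18 h. Of the 8 tested genes, 3 fell in parental cells, 4 in clone #A-59 and 3 in clone #B-20 at 18 h. The shares of all genes that fell were 16.2%, 17.1% and 11.4%. Scd1 rose in parental cells and #A-59. Fasn, the fatty acid synthase, had 454 and 569 CPM at 0 h, 468 and 519.8 at 6 h, then 197 and 229 at 18 h in parental cells. It had 542 and 545, 565 and 474, and 213 and 259 CPM in #A-59, and 428 and 555, 431 and 439, and 183 and 298 CPM in #B-20. Levels of Fasn at 6 h overlapped those at 0 h in all 3 genotypes, and those at 18 h were below both. Fasn fell at 18 h 2.40-fold in parental cells (adjusted p = 0.00012), 2.31-fold in #A-59 (0.00019) and 2.04-fold in #B-20 (0.00096), the last not without 0 h replicate 2 (0.0147). Acaca, the acetyl-CoA carboxylase directly before Fasn, had 101 and 105 CPM at 0 h versus 66.2 and 64.9 CPM at 18 h in parental cells and fell by 0.65, 0.74 and 0.77 (1.4e-05, 3.6e-06 and 6.1e-06). Acly, which supplies both pathways with cytosolic acetyl-CoA, passed in no response against 0 h, with log2 fold changes between −0.19 and 0.33.

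Fads2, the rate-limiting desaturase of polyunsaturated fatty acids, fell most of all members in #A-59 at 18 h (log2 −1.84), and most between 6 and 18 h in parental cells and #A-59. Its levels in parental cells were 37.1 and 35.1 CPM at 0 h, 57.8 and 52.9 at 6 h, then 16.1 and 14.4 at 18 h. In #A-59, Fads2 had 30.3 and 22.5 CPM, then 51.2 and 44.6, then 6.81 and 8.02, and in #B-20 31.0 and 25.9, then 31.9 and 28.4, then 12.51 and 12.98 CPM. The 18 h libraries were lowest in all genotypes, and the 6 h libraries exceeded those at 0 h except in #B-20, where they overlapped. Fads2 rose at 6 h 1.53-fold in parental cells (adjusted p = 0.003) and 1.81-fold in #A-59 (0.00033), with 1.06-fold in #B-20 (0.83), and was lower at 18 h than at 0 h 2.38-fold (1.2e-06), 3.59-fold (4.7e-08) and 2.23-fold (8.1e-06). Between 6 and 18 h it fell 3.65-fold, 6.49-fold and 2.37-fold. The falls held without any 1 library, whereas the 6 h call in parental cells was lost without any of them (up to 0.0568) and that in #A-59 without 0 h replicate 2 (0.0122).

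Its neighbor Fads1, the desaturase of the next step, rose at 6 h by 0.76 ± 0.12 in parental cells (62.5 and 54.7 CPM at 0 h, 102 and 95.8 at 6 h, adjusted p = 0.00027) and by 0.86 ± 0.12 in #A-59 (0.00015), with 0.40 ± 0.12 in #B-20 (0.11). At 18 h Fads1 fell in #A-59 (−0.45 ± 0.12, 0.0063), but not without 0 h replicate 1 or either 18 h library (up to 0.14), and the parental rise did not pass without 0 h replicate 2 (0.0131). Elovl5, an elongase of polyunsaturated fatty acids, passed in no response against 0 h.

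Scd1 went the other way. It had 2963 and 3348 CPM in parental cells at 0 h, 2677 and 3059 at 6 h, then 4755 and 4643 at 18 h. The levels of Scd1 were 3089.8 and 3321, 3020.3 and 3412, and 4577 and 4303 CPM in #A-59, and 3799 and 3977, 3747 and 3833, and 4579.9 and 4931 CPM in #B-20. All 18 h libraries were above the others of their genotype. Scd1 rose at 18 h 1.49-fold in parental cells (adjusted p = 3.6e-05) and 1.39-fold in #A-59 (0.00028), while the 1.22-fold change in #B-20 did not pass (0.015), and the call in #A-59 was lost without 18 h replicate 1 (0.0106). Scd2 rose at 6 h in parental cells (3414 and 3557 CPM to 4354 and 4657 CPM, log2 fold change 0.37, adjusted p = 0.005), but not without any of the 4 libraries (up to 0.0826). No stretch of 50 bases or more is shared between Scd1 and Scd2.

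The exporters rose while synthesis genes fell. Abca1, which transfers cholesterol to apolipoproteins, had 142 and 145 CPM in parental cells at 0 h, 114 and 130.2 at 6 h, then 410.3 and 432 at 18 h. In #A-59, Abca1 had 158 and 151 CPM, then 148 and 173, then 423 and 419.6, and in #B-20 108 and 95.7, then 83.6 and 82.8, then 316 and 278 CPM. Each 18 h library was far above all others of its genotype. Abca1 rose at 18 h 2.93-fold in parental cells (log2 1.55 ± 0.10, adjusted p = 2.6e-09), 2.73-fold in #A-59 (1.45 ± 0.10, 4.9e-09) and 2.91-fold in #B-20 (1.54 ± 0.10, 1.5e-08), and it passed at 6 h in none of them.

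Abcg1, the partner exporter to lipoproteins, had 140.0 and 133 CPM at 0 h, 198 and 210.4 at 6 h, then 251 and 256 at 18 h in parental cells. The levels of Abcg1 were 125 and 109, 208 and 196, and 244 and 243 CPM in #A-59, and 66.7 and 78.1, 84.0 and 107, and 161 and 158 CPM in #B-20. The 3 times were separate in each genotype, in rising order. Abcg1 rose at 6 h by 0.58 ± 0.10 on the log2 scale in parental cells (adjusted p = 0.00073) and by 0.79 ± 0.10 in #A-59 (8.1e-05), with 0.39 ± 0.11 in #B-20 (0.057), and at 18 h by 0.89 ± 0.10 (1.7e-06), 1.06 ± 0.11 (3.3e-07) and 1.14 ± 0.11 (6.7e-07). The 18 h calls of Abca1 and Abcg1 held without any 1 library, whereas the 6 h call of Abcg1 in parental cells was lost without replicate 2 of either time (up to 0.0191).

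Myeloid markers moved with the 18 h rise of Abca1, Abcg1 and Scd1, and of Mylip and Nr1h3 described further on. The summed level of the 4 genes (Lyz2, Csf1r, Itgam and Mpo) was 1.27 to 1.78 CPM at 0 h and 7.47 to 8.38 CPM at 18 h in parental cells, 7.35 to 9.22 and 26.8 to 27.0 CPM in #A-59, and 2.68 to 4.03 and 6.40 to 6.60 CPM in #B-20. Most of the sum at 18 h was Itgam, an integrin subunit, with 1.12 to 9.06 CPM over the 0 h libraries and 6.25 to 26.3 CPM over those at 18 h. Lyz2, the lysozyme of myeloid cells, was at 0 in 16 of 18 libraries, among them all at 18 h, whereas Mpo reached 0.0711 CPM and Csf1r 0.663 CPM at 18 h. The part of these markers in the rise was not tested.

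The clones were next compared with parental cells at the same time, to ask whether the pathway differs without TFEB. The members that differed numbered 1, 4 and 4 of 34 in #A-59 at 0, 6 and 18 h, against 9.56%, 22.7% and 10.4% of all genes. In #B-20 they numbered 3, 6 and 2 of 34, against 10.7%, 14.2% and 14.2%. These counts were below the share of all genes in some comparisons and near or above it in others. Members that differed at all 3 times were the exporters, in #B-20. Abcg1 was 1.88-fold lower in #B-20 than in parental cells at 0 h (adjusted p = 4.3e-06), 2.15-fold lower at 6 h (2.5e-07) and 1.59-fold lower at 18 h (9.5e-05), and Abca1 was 1.41-fold (0.0012), 1.47-fold (0.00033) and 1.42-fold lower (0.00067). In the libraries given above, those of #B-20 were below the parental ones for both genes at each time. Without 1 library the Abcg1 calls held, whereas those of Abca1 were lost at 0 and 18 h without replicate 2 of either genotype (up to 0.0339 and 0.0178) and at 6 h without parental replicate 2 (0.0112). In #A-59, by contrast, Abcg1 passed at no time and Abca1 was higher at 6 h (0.39 ± 0.10, 0.0039), which was lost without parental replicate 1 or #A-59 replicate 2 (up to 0.089).

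Acaca was the member that differed from parental cells in the same direction at the same time in both clones. The comparisons of both clones at a given time share the parental libraries, so that they are not independent. At 6 h it was lower in #A-59 (−0.34 ± 0.09, adjusted p = 0.0072) and in #B-20 (−0.44 ± 0.09, 0.0012). Its 6 h libraries had 117 and 133 CPM in parental cells, 102 and 96.0 CPM in #A-59 and 90.7 and 93.5 CPM in #B-20. The clones were below the parental libraries, but each call of Acaca was lost without some library: without replicate 2 of either genotype for #A-59 (up to 0.12), and without parental replicate 2 or either clone library for #B-20 (up to 0.0362).

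Dhcr7 and Fads2 were lower in each clone, at different times. Dhcr7 was lower in #B-20 at 0 h (−0.43 ± 0.11, adjusted p = 0.0088) and 6 h (−0.48 ± 0.11, 0.0026), and in #A-59 at 18 h (−0.72 ± 0.11, 0.00011), where its 47.3 and 53.9 CPM compared with 80.1 and 86.8 in parental cells. Of these the #A-59 value held without any 1 library, while the #B-20 call at 0 h was lost without any of the 4 (up to 0.111) and that at 6 h without parental replicate 2 or either clone library (up to 0.0319). Fads2 was lower in #B-20 at 6 h (−0.87 ± 0.13, 6.7e-05) and in #A-59 at 18 h (−1.04 ± 0.16, 0.00013, 2.05-fold), and both held.

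The remaining differences were each in a single clone. In #A-59, Fdps was higher at 0 h (0.64 ± 0.14, adjusted p = 0.0039) and 6 h (0.56 ± 0.14, 0.0055), Tm7sf2 was higher at 6 h (0.73 ± 0.10, 1.2e-05), Elovl5 was higher at 18 h (0.48 ± 0.09, 0.00072) and Mvk was lower at 18 h (−0.65 ± 0.16, 0.0061). Tm7sf2 at 6 h had 40.1 and 41.9 CPM in parental cells and 69.5 and 66.9 CPM in #A-59, and its call held without any 1 library. The calls of Fdps at 0 h and of Mvk were lost without any of the 4 libraries (up to 0.0424 and 0.0978), that of Fdps at 6 h without parental replicate 1 or #A-59 replicate 2 (up to 0.123), and that of Elovl5 without parental replicate 2 or #A-59 replicate 1 (up to 0.0362). In #B-20, Scd1 was higher at 6 h (0.40 ± 0.09, 0.0023), but not without parental replicate 1 or either clone library (up to 0.0786).

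**Figure D4:**
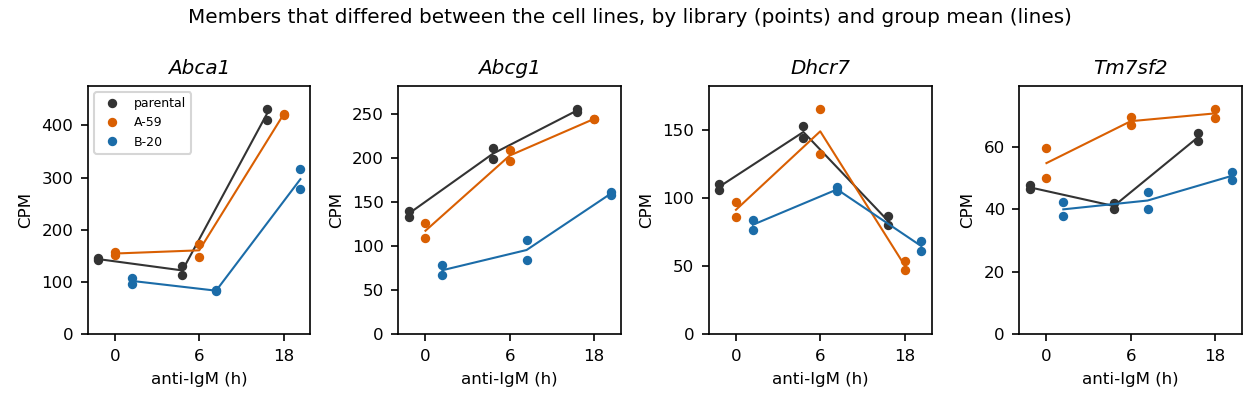
CPM of Abca1, Abcg1, Dhcr7 and Tm7sf2 in each library (points, n = 2 per group; lines join the means) by time and genotype. Abca1 and Abcg1 of #B-20 lie below both other genotypes at each time, and Tm7sf2 of #A-59 lies above both at 6 h.

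Between the clones, 3, 11 and 4 of 34 members differed at 0, 6 and 18 h, against 8.41%, 18.7% and 16.2% of all genes. All 11 at 6 h were lower in #B-20: Abcg1 (log2 −1.09), Abca1 (−0.95), Fads1 (−0.68), Tm7sf2 (−0.67), Fads2 (−0.67), Mvd (−0.59), Lss (−0.58), Fdft1 (−0.54), Dhcr7 (−0.49), Acly (−0.39) and Srebf2 (−0.39). Abca1, Abcg1 and Tm7sf2 were lower in #B-20 also at 0 h (−0.60, −0.70 and −0.46) and at 18 h (−0.50, −0.61 and −0.48), whereas Fads2 was higher in #B-20 at 18 h (0.78 ± 0.16, adjusted p = 0.0011). The 18 h call of Fads2 was lost without #A-59 replicate 1 or #B-20 replicate 2 (up to 0.0338), as was that of Tm7sf2 (up to 0.0198), and Tm7sf2 did not pass at 0 h without #A-59 replicate 1 or either #B-20 library (up to 0.108). The count at 6 h was 5, 6 and 7 without #A-59 replicate 1, #B-20 replicate 1 and #B-20 replicate 2. At 0 h it was 1 without #B-20 replicate 2, and at 18 h it was 2 and 1 without #A-59 replicate 1 and #B-20 replicate 2. Abca1 did not pass at 0 or 18 h without #B-20 replicate 2 (0.0104 and 0.0171), while Abcg1 passed throughout. Of the 11 calls at 6 h, those of Abcg1, Abca1, Fads1, Tm7sf2 and Lss held without any 1 library. With a correction for GC content, Mvd, Fdft1 and Srebf2 no longer passed at 6 h.

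Whether the clones responded differently to BCR ligation was tested with an interaction term, the response of a clone minus the parental response. The interactions of both clones share the parental libraries, and those at 6 and 18 h share the unstimulated libraries. No member passed by edgeR's test in any of the 4 interactions, and none by DESeq2, against 0.646% (#A-59, 6 h), 0.0392% (#A-59, 18 h), 0.183% (#B-20, 6 h) and 0.222% (#B-20, 18 h) of all genes. At an unadjusted p under 0.05 there were 4, 10, 3 and 1 members. The smallest adjusted p-values were 0.0668, 0.421, 0.351 and 0.324. A miss of the threshold does not show that responses were alike, since the 95% interval of an interaction extended by a median of 0.33 to 0.34 on either side. The larger number of members that fell at 18 h in #A-59 (23, against 13 in parental cells) is therefore not shown to be a difference in response.

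At 18 h, 30 of the 34 interactions of #A-59 were negative, against 54.8% of all genes, with a median of −0.26 (all genes, −0.03) that was −0.28 to −0.20 without 1 library. In #B-20 at 18 h, 23 were negative, against 48.8%, with a median of −0.08 (all genes, 0.01) that was −0.16 to 0.01 without 1 library. At 6 h, 19 were negative in #A-59 and 26 in clone #B-20, against 50.2% and 49.0%, with medians of −0.02 and −0.13. In #A-59 at 18 h, the 95% intervals of Mvk (−0.63, −1.07 to −0.19), Fdps (−0.61, −1.06 to −0.16), Fdft1 (−0.60, −1.01 to −0.20), Fads2 (−0.59, −1.03 to −0.15), Dhcr7 (−0.48, −0.81 to −0.16) and Lss (−0.46, −0.78 to −0.14) excluded 0 before adjustment. The intervals of Insig1 (−0.46), Pmvk (−0.45), Nsdhl (−0.41) and Scd2 (−0.30) did so too. At 6 h, Tm7sf2 had the smallest adjusted p, with an interaction of 0.51 (0.22 to 0.80) in #A-59, followed there by Hsd17b7 (−0.56, −0.93 to −0.18, adjusted p = 0.14). In #B-20 the lowest was Fads2 (−0.53, −0.92 to −0.13, 0.35).

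**Figure D5:**
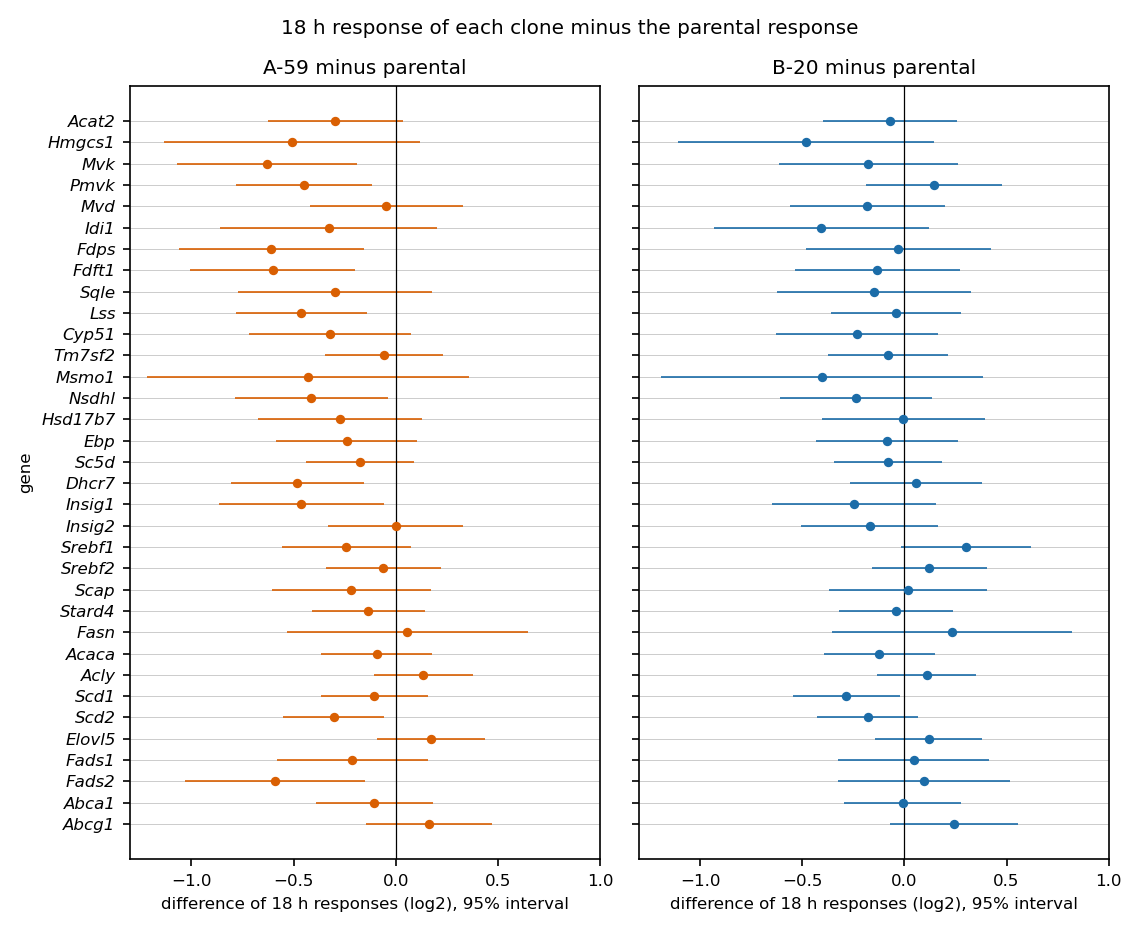
Difference of the 18 h response (log2 fold change of the clone minus that of parental cells) for each tested member with its 95% interval, in #A-59 and #B-20 (n = 2 libraries per group). Most values of #A-59 lie below 0, those of #B-20 lie around 0, and no member passed at an adjusted p under 0.01.

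Other genes of sterol and lipid metabolism were examined as lists. Of 8 tested genes of the LXR axis, 3 rose in parental cells, 4 in clone #A-59 and 4 in clone #B-20 at 18 h and none fell, where 16.4%, 14.7% and 11.4% of all genes rose and 16.2%, 17.1% and 11.4% fell. Of 12 genes of sterol uptake, transport and esterification, 6, 4 and 4 rose and 2, 2 and 1 fell, and of 13 genes of the isoprenoid branch, 1, 0 and 0 rose and 5, 6 and 4 fell. Fatty acid and glycerolipid supply (23 tested genes) had 4, 3 and 3 that rose, near the share of all genes, and 8, 8 and 6 that fell. The 8 genes of SREBP cleavage and sterol-regulated degradation had 1, 2 and 0 that rose and 2 in each genotype that fell, and of 4 tested genes of oxysterol formation and side routes 1, 1 and 0 rose. At 6 h at most 2 genes of any of these lists passed in 1 direction.

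Mylip, an LXR target that promotes degradation of lipoprotein receptors, had 19.4 and 23.4 CPM at 0 h versus 56.1 and 53.1 CPM at 18 h in parental cells, 28.6 and 28.9, and 69.4 and 69.3 CPM in #A-59, and 17.6 and 19.5, and 36.1 and 38.9 CPM in #B-20. It rose by 1.35 ± 0.11, 1.27 ± 0.11 and 1.01 ± 0.11 on the log2 scale (adjusted p 3.6e-08, 7.0e-08 and 3.8e-06). Nr1h3, which encodes LXRα, rose at 18 h in parental cells (1.84 ± 0.42, 0.0016) and #A-59 (1.76 ± 0.42, 0.0022) from levels near the detection limit, 0.271 to 1.73 CPM over all libraries. Soat1, which esterifies cholesterol for storage, had 31.6 and 37.4 CPM at 0 h versus 62.2 and 64.3 CPM at 18 h in parental cells and rose by 0.87, 0.72 and 0.73 in the 3 genotypes. Cyp46a1, an oxysterol-forming hydroxylase, rose at 18 h in parental cells (1.15 ± 0.28, 0.0029) and #A-59 (1.01 ± 0.28, 0.0058).

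Several genes outside the list fell with the synthesis genes. Lrp8, a lipoprotein receptor, had 18.1 and 18.7 CPM at 0 h, 26.9 and 29.4 at 6 h, then 6.87 and 9.18 at 18 h in parental cells and fell at 18 h by 1.17 ± 0.16, 1.29 ± 0.15 and 0.96 ± 0.15 in parental cells, #A-59 and #B-20. Pdss1, which makes the side chain of ubiquinone, fell by 1.09 ± 0.12, 1.13 ± 0.12 and 0.90 ± 0.12. Dgat2, an acyltransferase of triglyceride synthesis, had 4.41 and 3.52 CPM at 0 h, 7.25 and 6.75 at 6 h, then 1.43 and 1.30 at 18 h in parental cells, where it fell by 1.56 ± 0.30 at 18 h (adjusted p = 0.00033), and it fell in #A-59 by 1.45 ± 0.29 (0.00051).

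In the comparison of clones with parental cells, Elovl7, an elongase of long-chain fatty acids, differed most. It had 1.47 to 2.94 CPM in the 6 parental libraries, 18.0 to 23.5 CPM in those of #A-59 and 18.6 to 24.4 CPM in those of #B-20, without overlap. The log2 differences were 3.32, 3.23 and 3.11 in #A-59 and 3.36, 3.29 and 3.13 in #B-20 at 0, 6 and 18 h. Soat1 was higher than in parental cells in #A-59 at each time (1.12, 1.29 and 0.97), while in #B-20 the differences of 0.25, 0.34 and 0.11 did not pass. Smpdl3a, a phosphodiesterase under LXR control, had 0.145 to 0.714 CPM in parental libraries and 0 to 0.0711 CPM in the clones, below the level of 3 counts in each clone library.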

How the data were processed

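The deposited files hold, for each of 18 libraries, whole-number read counts per Ensembl gene, not normalized. Per the submitters' processing notes and the study's methods, the authors sequenced unstranded mRNA libraries as single-end 50-base reads (bcl2fastq 2.20.0.422 in the notes, an earlier version in the methods), used STAR 2.5 for alignment to GRCm38, and took the counts from featureCounts 1.5.0-p1. Reads of overlapping or near-identical genes cannot be separated in such counts. Samples were grouped by their labels.

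The filter filterByExpr of edgeR 4.0.16 (R 4.3.3) was applied, and the libraries were scaled by TMM and fitted with a robust quasi-likelihood model with 1 mean for each of 9 groups over all 18 libraries, because 2 libraries per group are few for a separate fit. P-values were adjusted over the 15318 tested genes within each of 22 comparisons (Benjamini-Hochberg). A gene passed at an adjusted p under 0.01 and was a DEG if its log2 fold change was also above 1 or below −1, the thresholds of the study. Levels are TMM-scaled counts per Mio. All 35 members are named. Genes of other lists are named if DEG in the same direction in at least 2 responses or 2 clone comparisons. The members and lists were chosen with earlier results of these data known. Intervals and the 3-count limit cover counting error or library spread only.

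Alternatives were DESeq2 1.42.0, DESeq2 size factors in edgeR, no filter, a filter of 10 counts in each library, a replicate block, a fit of only the groups compared, a GC correction (loess, span 0.5, GC known for 99.2% of tested genes) and each library left out, a lone sample then being assumed to vary like the other groups. The fits were tested on simulated data. Promoter windows and coordinates are those of RefSeq on GRCm38.p6. Exon lengths, GC content and shared sequence are from GENCODE vM39 on GRCm39, which matched 93.2% of gene identifiers and 99.6% of counts. The reads were not analysed here.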

Additional observations from a re-analysis of the deposited data

How the results depend on the processing

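No result reversed its direction of call under any alternative. The numbers of members that passed at 18 h, and between 6 and 18 h, stayed within 1.5 times under every alternative. Leaving out 1 library gave 12 to 15 (parental), 20 to 23 (#A-59) and 12 to 18 (#B-20) at 18 h versus 0 h, and 19 to 25, 25 to 28 and 17 to 22 between 6 and 18 h. The 4 interactions had 0 passing members under every alternative. At 6 h, the parental count of 7 became 12 with the replicate block, 12 with the GC correction, 12 with only the groups compared, and 2 to 4 without 1 library. That of #A-59 (7) became 0 with only the groups compared and 2 to 7 without 1 library. That of #B-20 (0) became 1 with DESeq2, the replicate block or the GC correction, 2 with only the groups compared and 0 without any 1 library. In #A-59 versus parental cells, the count of 1 at 0 h became 2 with no filter, the block or the GC correction and 0 to 1 without 1 library, that of 4 at 6 h became 1 with only the groups compared and 2 to 5, and that of 4 at 18 h became 7 with DESeq2, the block or only the groups compared, and 2 to 4. In #B-20 versus parental cells, 3 at 0 h became 5 with the block and 1 to 2 without 1 library, 6 at 6 h became 12 with only the groups compared and 3 to 5, and 2 at 18 h became 6 with the block or the GC correction and 1 to 3. Between the clones, 3 at 0 h became 7 with no filter and 1 to 4 without 1 library, 11 at 6 h became 4 with only the groups compared and 5 to 16, and 4 at 18 h became 1 to 4. The causes were not tested. Over all tested genes, libraries with the same replicate number deviated together weakly (correlation over 36 pairs of groups −0.026 to 0.320, median 0.078, 14 above 0.1). Between groups of 1 genotype the correlation was 0.160 to 0.308 in #A-59, 0.112 to 0.170 in #B-20 and 0.0694 to 0.126 in parental cells. Several members shifted more regularly. Replicate 2 was higher in 9 of 9 groups for Hmgcs1, Sqle and Msmo1, and in 8 for Acat2, Cyp51, Insig1 and Fasn. It was higher in only 1 group for Fads1 and 2 groups for Fads2 and Tm7sf2. The summed level of the mevalonate and squalene to cholesterol segments was higher in replicate 2 in every group. No label states what a replicate number shares and there are 2 numbers, so that the fit without the block was retained, and whether the numbers mark shared experiments is not known. With 2 libraries per group, a miss of the threshold says little about small changes.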
